A study of Mus musculus with 10 samples.

Results

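The prominins *Prom1* and *Prom2*, the adhesion gene *Epcam* and the membrane protein gene *Tmem54* encode surface proteins and were examined in the first pharyngeal arch (PA1) of mouse embryos with and without the transcription factor gene *Grhl2*. These 4 genes, of 22114 in the deposited counts, were selected on their measured values in the same arches: *Prom2* and *Tmem54* because they stood among the largest differences between the genotypes, and *Prom1* and *Epcam* as a paralog and as another epithelial surface protein beside them. Their difference between the genotypes is therefore given as a description, with no p-value, and calls from the fit over all genes are only counted beside their share among all genes. The 5 wild-type and 5 *Grhl2*-/- (KO) arches came from male C57BL/6 embryos at E10.5, 1 embryo per library, with no treatment, and wild-type embryos served as the controls. The null allele is present in every cell of the KO embryo, and the whole arch was sequenced as ribosome-depleted total RNA, so the epithelial lining and the mesenchyme it surrounds were measured as a single mixture. In such bulk samples fewer cells of a type and less RNA per cell cannot be told apart. All 4 genes passed the filter on low counts, with 14561 genes tested.

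Prominins are pentaspan membrane glycoproteins that bind cholesterol and sit in plasma membrane protrusions such as microvilli and cilia. PROM1, also known as CD133, is best known as a marker of neuroepithelial and stem cells, whereas PROM2 is found mainly in epithelia. EPCAM is a cell adhesion molecule of the basolateral epithelial membrane that binds claudin-7, is cleaved by the serine protease matriptase, and can be shed by ADAM proteases before gamma-secretase releases its cytoplasmic tail, which associates with FHL2 and beta-catenin. TMEM54 is a small multipass membrane protein whose function is little described. GRHL2 is a transcription factor of surface epithelia that binds the sequence AACCGGTT.

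The promoters of the 4 genes are shown first, as sequence only, and whether GRHL2 acts at them was not tested here. Of the 4 genes, 3 nearly lost or strongly reduced their RNA, while *Prom1* kept most of it. Each sequence is the 250 bases before an annotated start site, from RefSeq on GRCm38.p6, written 5′ to 3′ along the strand of the gene. All 4 genes matched an entry. Capitals mark matches, on either strand, to 4 strings: the GRHL consensus AACCGGTT, its first 6 letters AACCGG, its middle 6 letters ACCGGT, and the E-box CACCTG to which ZEB and SNAIL repressors bind. The second and the third string lie inside the first and overlap each other, and AACCGGTT and ACCGGT read the same on both strands. *Prom2* is on the minus strand (chr2:127541418-127541667), *Epcam* on the plus strand (chr17:87635729-87635978), *Tmem54* on the plus strand (chr4:129105298-129105547) and *Prom1* on the minus strand (chr5:44101737-44101986).
Prom2: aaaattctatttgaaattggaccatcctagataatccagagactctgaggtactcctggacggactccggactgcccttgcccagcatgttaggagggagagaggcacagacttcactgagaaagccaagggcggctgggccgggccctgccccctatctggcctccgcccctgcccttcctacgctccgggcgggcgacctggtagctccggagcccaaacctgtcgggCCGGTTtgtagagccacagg
Epcam: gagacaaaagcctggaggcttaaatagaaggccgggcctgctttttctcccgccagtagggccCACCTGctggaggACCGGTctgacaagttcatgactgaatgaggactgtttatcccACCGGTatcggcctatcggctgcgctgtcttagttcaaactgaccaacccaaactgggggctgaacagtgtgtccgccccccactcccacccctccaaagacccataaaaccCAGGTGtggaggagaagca
Tmem54: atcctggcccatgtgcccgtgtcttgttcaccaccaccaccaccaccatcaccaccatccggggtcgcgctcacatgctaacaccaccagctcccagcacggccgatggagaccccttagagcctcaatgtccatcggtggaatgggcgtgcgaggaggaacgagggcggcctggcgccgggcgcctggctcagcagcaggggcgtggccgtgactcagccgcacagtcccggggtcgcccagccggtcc
Prom1: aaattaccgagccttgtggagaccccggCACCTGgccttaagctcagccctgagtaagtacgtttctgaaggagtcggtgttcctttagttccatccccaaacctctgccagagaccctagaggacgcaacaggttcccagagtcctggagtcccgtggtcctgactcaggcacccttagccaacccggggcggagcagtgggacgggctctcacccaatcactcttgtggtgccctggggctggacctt

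No upstream window of the 4 genes held the full AACCGGTT, which is in 0.116% of all 32851 promoter windows of this length. *Prom2* held a single AACCGG on the other strand, from base -20 to -15 counted back from the start site, a string found in 5.62% of windows. *Epcam* held ACCGGT at both -174 to -169 and -131 to -126, and this string is in 1.86% of windows. It also held the E-box from -187 to -182 and, on the other strand, from -19 to -14. The *Prom1* window held 1 E-box, from -222 to -217, and the E-box is in 17.2% of windows. *Tmem54* held none of the 4 strings, either in the window shown or in that of an alternative start site that overlaps it, and the window of a second *Prom1* start site held none. A match is a stretch of letters and not a binding site, and these windows cover only the bases next to the start. By chromatin immunoprecipitation of E10.5 PA1, the paper reports GRHL2 at a known site of *Epcam*. The position of that site was not compared with these windows.

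The libraries held between 22188454 and 28801378 counts on protein-coding genes, so 3 reads corresponded to between 0.104 and 0.136 CPM (counts scaled to a common library size with TMM factors), for counting error only. *Grhl2* itself averaged 35.6 ± 3.29 CPM in the wild-type and 4.53 ± 1.45 in the KO libraries (SD, n = 5 each), and its ranges, 31.8 to 40.5 and 2.80 to 6.33 CPM, did not overlap. Libraries WT1-566 and WT1-568 stood apart with a summed level of 6 sensory neuron markers of 41.3 and 37.6 CPM, against 422 to 678 in the other wild-type arches and 229 to 849 in the KO arches. Without both of them the log2 fold changes of *Prom1*, *Prom2*, *Epcam* and *Tmem54* were -0.12, -6.18, -2.50 and -6.47, beside -0.17, -6.21, -2.51 and -6.34 with all arches.

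*Prom2* RNA was nearly absent from KO arches and *Prom1* RNA was not. *Prom2* (ENSMUSG00000027376, chr2:127526473-127541467, minus strand, GRCm38) had 160, 145, 160, 153 and 147 reads in libraries WT1-566, WT1-568, WT3-588, WT5-566 and WT8-568. In KO1-588, KO1-628, KO2-566, KO2-568 and KO3-604 it had 1, 2, 5, 1 and 1 reads. The groups did not overlap, and only KO2-566 was above 3 reads. The level was 5.91 ± 0.800 CPM in wild-type and 0.0721 ± 0.0592 CPM in KO arches (SD, n = 5 each). The log2 fold change, fitted with limma-voom over all genes, was -6.21 (SE 0.379, 95% confidence interval -7.04 to -5.38), the third most negative of all genes tested. Since 4 of the KO arches were below 3 reads, the ratio of pooled reads describes the difference more directly: 765 reads in wild-type arches against 10 in KO arches, scaled for depth, gave an 80.0-fold ratio with an exact 95% interval of 43.3 to 167, for counting error only.

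*Prom1* (ENSMUSG00000029086, chr5:43993620-44102032, minus strand) was among the better expressed genes of the arch, above 82.6% of the genes tested by level per length. Its level in the wild-type libraries, in the order given above, was 190, 156, 145, 164 and 150.0 CPM. In the KO libraries it was 142, 139, 154, 131 and 146 CPM. The groups overlapped, with WT1-566 highest and KO2-568 lowest. The mean was 161 ± 17.8 CPM in wild-type and 142 ± 8.62 CPM in KO arches (SD, n = 5 each), so KO arches had 88.3% of the wild-type level. The log2 fold change was -0.17 (SE 0.0705, unadjusted 95% interval -0.33 to -0.02), and across leaving out each arch in turn it lay between -0.21 and -0.11. *Prom1* is the only 1 of the 4 genes not called at a false discovery rate (FDR, Benjamini-Hochberg adjusted over all genes tested) below 0.01. That does not show its level to be equal in both genotypes, since the interval leaves room for a decrease of up to 0.33 on the log2 scale.

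Because both prominins were counted in the same library, their ratio does not depend on how libraries were scaled. *Prom2* made up 3.54% ± 0.265 (SD, n = 5) of the prominin reads of wild-type arches, with a range of 3.23 to 3.81%. In KO arches it made up 0.0493% ± 0.0374, from 0.0251 to 0.112%. The highest KO share, 0.112% in KO2-566, has an exact 95% binomial interval of 0.0364 to 0.261%, and the lowest wild-type share, 3.23% in WT1-568, one of 2.73 to 3.79%, both for counting error only. These shares come from the contrast on which *Prom2* was selected and are a description. Corrected for the length of their exons, *Prom2* was 4.83% ± 0.357 of prominin RNA in wild-type arches.

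*Epcam* kept a minor part of its RNA. The gene (ENSMUSG00000045394, chr17:87635979-87651129, plus strand) was at 55.3, 55.4, 64.4, 46.7 and 48.6 CPM in libraries WT1-566, WT1-568, WT3-588, WT5-566 and WT8-568. In KO1-588, KO1-628, KO2-566, KO2-568 and KO3-604 it was at 13.4, 8.52, 6.96, 12.9 and 7.18 CPM. The groups did not overlap, and every KO arch was well above the level of 3 reads, with 186 to 376 reads. The mean was 54.1 ± 6.98 CPM in wild-type and 9.80 ± 3.14 CPM in KO arches (SD, n = 5 each), or 18.1% of the wild-type level. The log2 fold change was -2.51 (SE 0.176, 95% interval -2.89 to -2.12). The KO arches varied more among themselves than the wild-type arches did, with a coefficient of variation of 32.0% against 12.9%.

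*Tmem54* (ENSMUSG00000028786, chr4:129105548-129111626, plus strand) was close to undetected in KO arches. It had 80, 77, 115, 93 and 106 reads in the wild-type libraries, in the same order, and 2, 0, 2, 1 and 0 reads in the KO libraries. No KO arch reached 3 reads, and 2 had none. The wild-type level was 3.61 ± 0.586 CPM (SD, n = 5). Pooled over arches, 471 wild-type reads stood against 5 KO reads, a depth-scaled ratio of 98.5 with an exact 95% interval of 41.9 to 305, for counting error only. The fitted log2 fold change of -6.34 (SE 0.491) depends on the small count added to zeros. Of its 1222 exonic bases, 57 (4.66%) also lie in exons of *Hpca* on the opposite strand, whose mean was 0.373 CPM among wild-type and 0.609 CPM among KO libraries. The library kit keeps the strand of the RNA and the deposited table is labelled as counted on the reverse strand.

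**Figure D1:**
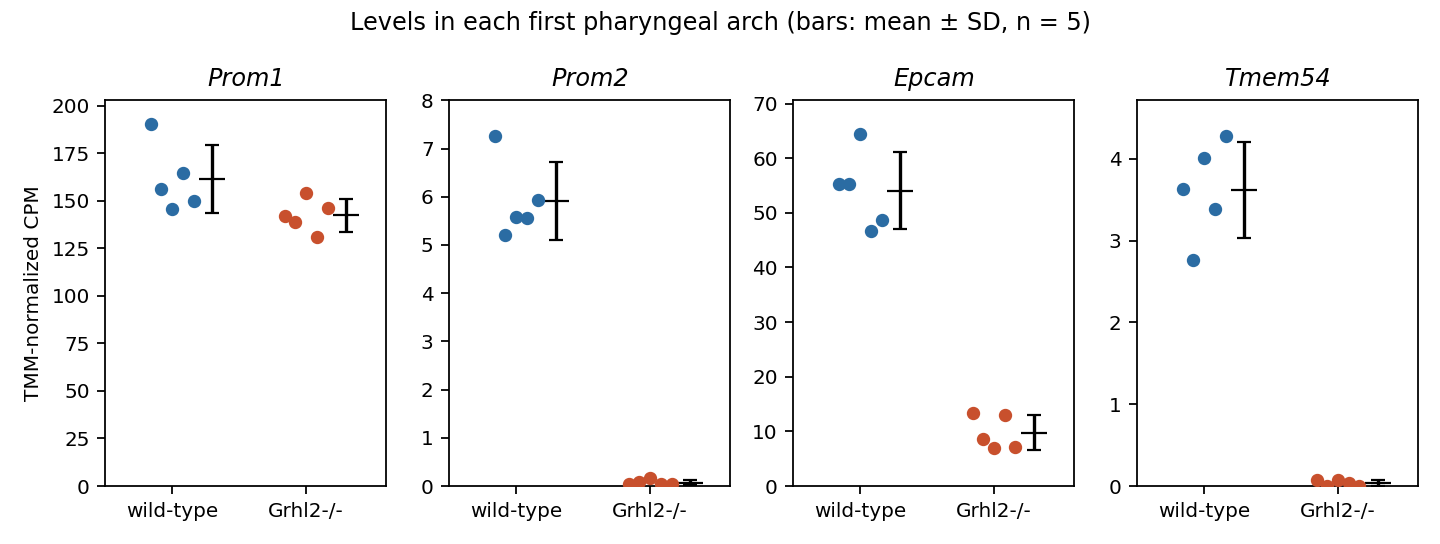
TMM-normalized CPM (linear axes from 0, with its own scale for each gene) of *Prom1*, *Prom2*, *Epcam* and *Tmem54* in each wild-type (blue) and *Grhl2*-/- (orange) arch, with the mean ± SD of 5 arches as black bars. The points of the genotypes overlap for *Prom1*, with means of 161 and 142 CPM, and lie apart for *Prom2*, *Epcam* and *Tmem54*.

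At FDR below 0.01, 3 of the 4 genes were called lower and 0 higher in KO arches. Over all genes tested, 1.09% were called lower (158 genes), 0.879% higher (128 genes) and 1.96% in either direction. With edgeR these shares were 1.11% lower and 0.975% higher, with DESeq2 3.81% and 3.57%, and at an unadjusted limma-voom p below 0.05 they were 14.3% and 14.2%. The KO arches all lay below the wild-type arches for the same 3 of the 4 genes, as they did for 4.66% of all genes. Since the genes were selected on this contrast, nothing is read from these counts.

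Levels per length put the 4 genes into a higher and a lower pair. In wild-type arches *Epcam* was at 24.6 ± 3.18 and *Prom1* at 22.5 ± 2.48 CPM per kb of exon (SD, n = 5 each), and these neighbours differed by less than their spread. *Tmem54*, at 2.96 ± 0.479, and *Prom2*, at 1.14 ± 0.154 CPM per kb, were both far lower, and their ranges did not overlap. In KO arches *Prom1*, at 19.8 ± 1.20 CPM per kb, stood above *Epcam*, at 4.46 ± 1.43. There *Tmem54* and *Prom2* were at 0.0288 and 0.0139 CPM per kb, from too few reads to order. Exon length here is the union over all annotated transcripts, which understates the level of a gene with many alternative exons such as *Prom1*, with 36 exon blocks.

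The KO arches did not rank alike for *Epcam* and *Prom1*, while *Prom2* and *Tmem54* had too few KO reads to rank. *Epcam* was kept at 24.8% and 23.9% of the wild-type mean in KO1-588 and KO2-568, and at 15.8%, 12.9% and 13.3% in KO1-628, KO2-566 and KO3-604. The same 2 arches were highest for *Cdh1*, which encodes the epithelial adhesion protein E-cadherin, at 22.2% and 26.0%, against 12.4% to 16.9% in the others. They were also highest for the residual *Grhl2* reads, at 15.7% and 17.8% against 7.89% to 12.6%, and for the sum of 15 epithelial markers, at 68.7% and 69.0% against 55.8% to 57.0%. They were the lowest KO arches for the sum of sensory neuron markers, at 229 and 252 CPM against 606 to 849 CPM, and for that of 5 crest glia markers, at 72.7 and 82.7 CPM against 147 to 196 CPM. The part of this tissue content in the levels of the 4 genes was not tested. *Prom1* was highest, at 95.6% of the wild-type mean, in KO2-566, the arch lowest in *Epcam*, and lowest in KO2-568, at 81.2%.

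**Figure D2:**
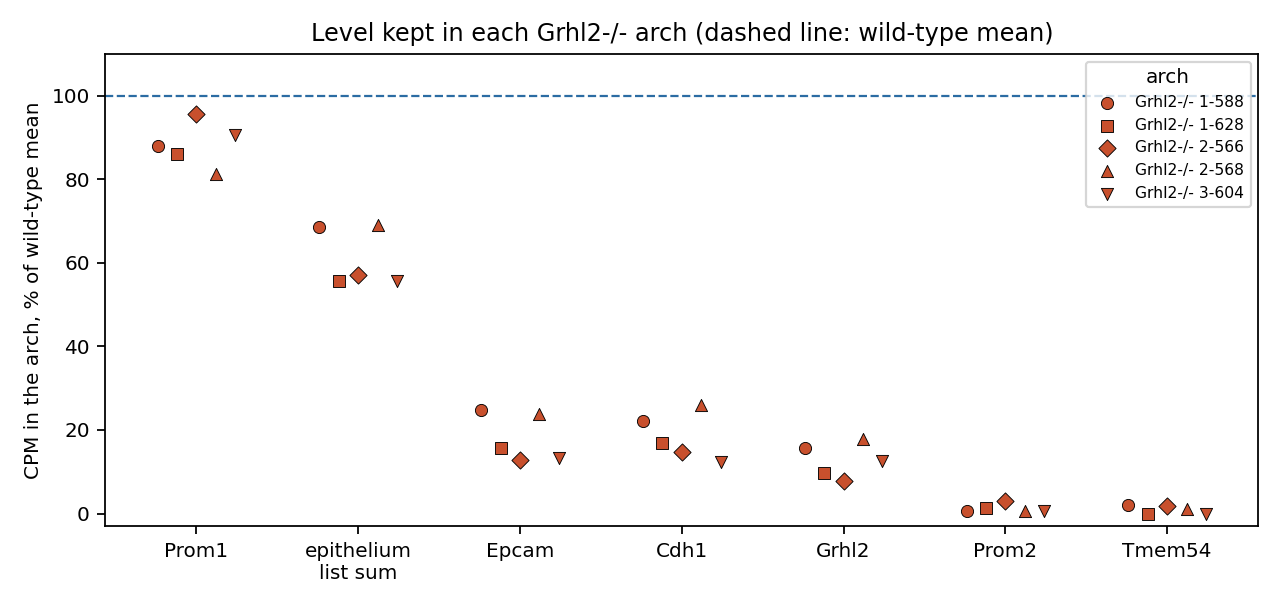
CPM in each of the 5 *Grhl2*-/- arches as a percentage of the wild-type mean (linear axis, dashed line at 100%), with 1 symbol per arch, for *Prom1*, the summed epithelial markers, *Epcam*, *Cdh1*, *Grhl2*, *Prom2* and *Tmem54*. *Prom1* lies between 81.2 and 95.6%, the marker sum between 55.8 and 69.0%, *Epcam* between 12.9 and 24.8%, and *Prom2* at or below 2.93%.

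Epithelial markers moved with *Epcam*, *Prom2* and *Tmem54*. Of 15 epithelial markers, 10 were called lower and 0 higher with limma-voom, edgeR and DESeq2 alike (0 higher also at an unadjusted p below 0.05), where these tools called 1.09%, 1.11% and 3.81% of all genes lower. The markers had a median log2 fold change of -1.69 beside 0.01 over all genes. Their summed level was 465 to 595 CPM in wild-type and 301 to 373 CPM in KO arches. Among the 5 markers not called were the simple-epithelial keratins *Krt8* and *Krt18*, at 77.2% and 96.9% of the wild-type level, the basal-epithelial regulator *Trp63*, at 84.7%, and the tricellular junction gene *Lsr*, at 112%. The lower calls of the basal keratin *Krt5*, the polarity gene *Crb3* and the desmosome gene *Perp* were lost without 1 of several arches, in 8, 3 and 7 of 10 such fits. How far the share of epithelial cells enters the levels of the 4 genes was not tested.

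Among markers of the other tissues, 1 of 6 mesenchymal genes was called lower with limma-voom and edgeR, beside 1.09% and 1.11% of all genes, the homeobox gene *Msx1* (log2 fold change -0.66, FDR 0.00595 with limma-voom, lost in 6 of 10 fits that left out an arch). DESeq2 called 2 lower, *Msx1* and the mesenchymal transcription factor gene *Twist1*, beside 3.81% of all genes. *Twist1* had 78.6% of the wild-type level, with no overlap between the groups. It was not called with limma-voom (log2 fold change -0.34, FDR 0.0189). In separated KO epithelium the paper reports raised *Twist1* by Q-RT-PCR, a compartment that the whole arch does not resolve. At an unadjusted p below 0.05, 3 mesenchymal genes were lower, beside 14.3% of all genes. The mesenchymal sum was 1455 to 1914 CPM in wild-type and 1296 to 1523 CPM in KO arches. Neuroepithelial tissue is a known site of *Prom1* expression. Of 5 neuroepithelial markers 0 were called with limma-voom or edgeR, 1 was higher with DESeq2 (*Neurog2*, a proneural gene) and 3 were higher at an unadjusted p below 0.05, beside 3.57% and 14.2% of all genes. Their sum was 0.818 to 8.47 CPM in wild-type and 6.37 to 41.5 CPM in KO arches. KO1-588, with the highest such sum, had 142 CPM of *Prom1*, close to the KO mean. A single arch cannot show what this tissue adds to *Prom1*, and this was not tested. The 6 sensory neuron, 5 glial, 5 endothelial, 5 pharyngeal endoderm, 4 erythroid and 4 macrophage markers gave 0 calls with limma-voom or edgeR. DESeq2 called 3 of them higher, beside 3.57% of all genes: *Kdr* and *Pecam1* of the endothelial list and *Sox17*, the only such gene of the endoderm list. At an unadjusted p below 0.05, 3 endothelial markers and *Sox17* were higher and 2 erythroid markers lower, of 29 markers of these 6 lists. Over all genes 14.2% were higher and 14.3% lower. Endothelial sums were 293 to 329 CPM in wild-type and 324 to 383 CPM in KO arches, and erythroid sums 2622 to 4427 and 2106 to 2845 CPM. Their part in the levels of the 4 genes was not tested.

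Genes that act with EPCAM were then examined as a list of 21 binding partners, proteases, protease inhibitors and signalling proteins, all of them tested. With limma-voom 5 were called lower and 0 higher, where 1.09% of all genes were called lower and 0.879% higher. At an unadjusted p below 0.05, 8 were lower and 1 higher, beside 14.3% and 14.2% of all genes. With edgeR 4 and with DESeq2 5 were lower, beside 1.11% and 3.81% of all genes, and 0 were higher with either. In all, 12 of the 21 had a negative log2 fold change, and the median was -0.03. They included the genes of the claudin partner and of matriptase and its circle. *Cldn7*, the tight junction protein that binds EPCAM, went from 11.6 ± 1.53 to 3.82 ± 1.21 CPM (log2 fold change -1.63, SE 0.180, FDR 0.00035). *St14*, which encodes matriptase, went from 27.0 ± 2.15 to 3.90 ± 1.89 CPM (-2.90, SE 0.221, FDR 2.0e-05). *Prss8*, which encodes the membrane protease prostasin, went from 10.6 ± 1.71 to 1.88 ± 0.708 CPM (-2.56, SE 0.236, FDR 0.00010). *Spint1*, the inhibitor of matriptase, went from 15.9 ± 1.20 to 8.59 ± 2.56 CPM (-0.93, SE 0.157, FDR 0.00595), all with SD and n = 5 per group. The call of *Spint1* was lost with edgeR (FDR 0.0111) and without any 1 of WT1-566, WT1-568, WT3-588, WT8-568, KO1-628, KO2-566 or KO3-604 (limma-voom FDR up to 0.0206), while the calls of *Cldn7*, *St14* and *Prss8* held in all 10 such fits. The related inhibitor *Spint2* had a log2 fold change of -0.63 and was not called (limma-voom FDR 0.0818), and is named after its value was seen.

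The sheddases, the gamma-secretase subunits and the signalling partners of the EPCAM tail were not called. The most highly expressed of these were *Ctnnb1* (beta-catenin), at 1811 ± 43.0 and 1772 ± 63.6 CPM, *Adam10*, at 109 ± 8.35 and 115 ± 10.3 CPM, and *Adam17*, at 108 ± 2.34 and 112 ± 6.43 CPM in wild-type and KO arches (SD, n = 5 each). Their log2 fold changes had 95% intervals of -0.10 to 0.04, -0.08 to 0.23 and -0.05 to 0.14. These intervals lie far from the -2.51 of *Epcam*, but all are values of the whole arch. Epithelium and mesenchyme were measured together, so a change of these genes within the epithelium alone cannot be told from them.

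**Figure D3:**
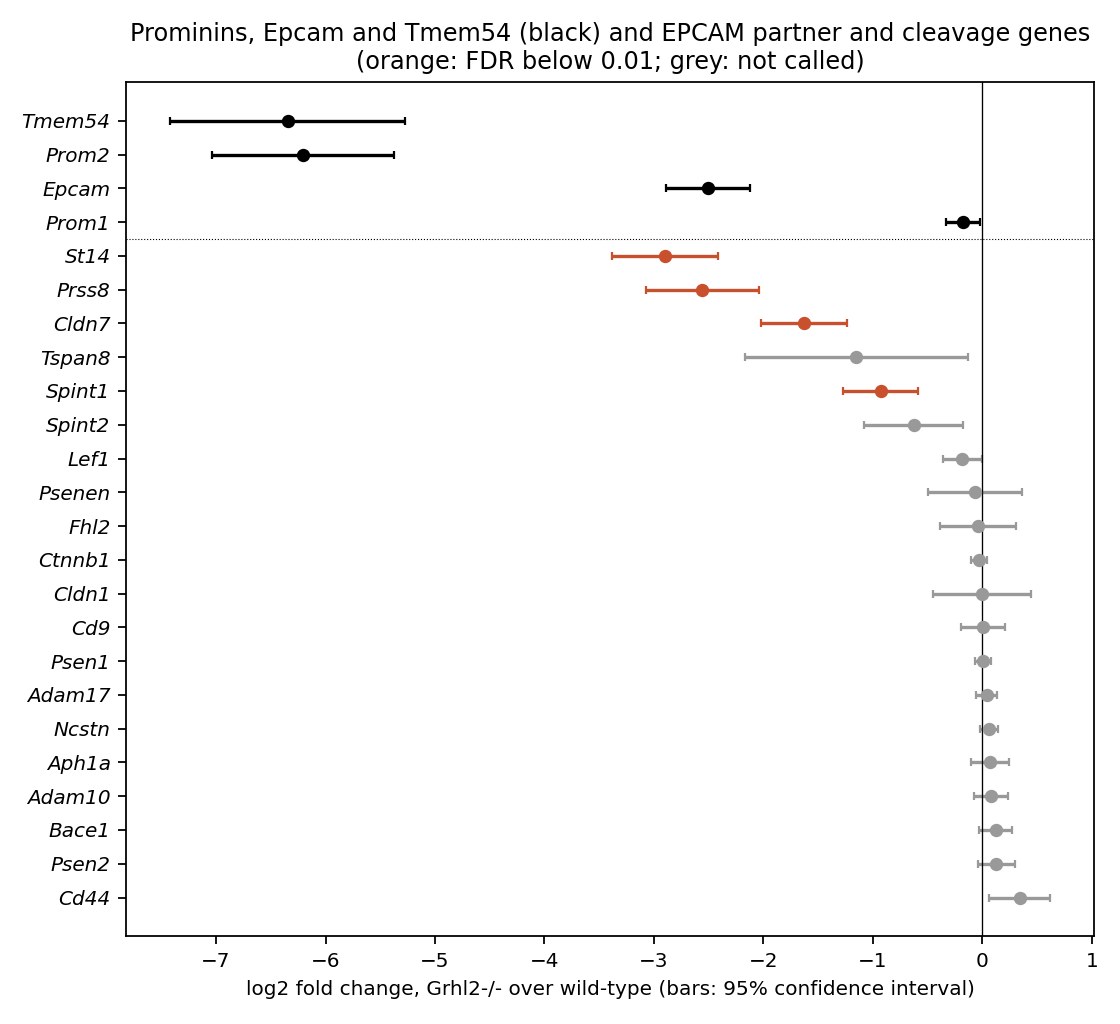
Log2 fold change of KO over wild-type arches with its 95% confidence interval from limma-voom for *Tmem54*, *Prom2*, *Epcam* and *Prom1* (black, above the dotted line) and for genes that act with EPCAM (orange where FDR was below 0.01, grey otherwise). *St14*, *Prss8*, *Cldn7* and *Spint1* lie at -2.90 to -0.93 and the sheddases and gamma-secretase subunits lie around 0.

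Genes of microvilli, cilia and other apical protrusions, the structures in which prominins reside, were not called in either direction with limma-voom or edgeR. Of 25 such genes 24 were tested, with 0 called by limma-voom and 0 by edgeR, and the median log2 fold change was 0.05. With 1.96% of all genes called in either direction, 0 of 24 is near the background share and nothing particular to these genes is read from it. At an unadjusted p below 0.05, 5 were lower and 3 higher, beside 14.3% and 14.2% of all genes. DESeq2 called the actin-capping gene *Eps8l2* (limma-voom log2 fold change -0.71) and the actin-bundling gene *Pls1* (-0.44) lower and the motor gene *Myo6* (0.39) higher, and these 3 were chosen for naming after their values were seen. DESeq2 called 3.81% of all genes lower and 3.57% higher. Among the list's most abundant genes were the actin bundler *Fscn1*, at 636 ± 11.8 and 607 ± 20.7 CPM, and the membrane-actin linker *Rdx*, at 607 ± 21.02 and 570 ± 25.6 CPM (SD, n = 5 each).

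*Tmem54* belongs to a series of genes numbered only as transmembrane proteins, which share a name and not a family. Of 235 other genes of this name 194 were tested, of which 4 were called lower and 1 higher with limma-voom, a share near the 1.96% called in either direction over all genes, and their median log2 fold change was 0.04. The 5 called genes are given singly and nothing is read from their number. *Tmem184a* went from 2.50 ± 0.635 to 0.612 ± 0.269 CPM (-2.09, FDR 0.00385) and *Tmem125* from 0.944 ± 0.181 to 0.241 ± 0.0711 CPM (-1.91, FDR 0.00136). *Tmem30b*, a subunit of phospholipid flippases, went from 11.8 ± 1.11 to 6.82 ± 0.700 CPM (-0.79, FDR 0.00060) and *Tmem59l* from 19.3 ± 2.19 to 13.0 ± 1.67 CPM (-0.56, FDR 0.00770). The 1 higher gene, *Tmem100*, known from endothelium, went from 3.22 ± 0.266 to 5.26 ± 0.763 CPM (0.70, FDR 0.00604), all by limma-voom with SD and n = 5 per group. In fits without 1 arch, the calls of *Tmem184a*, *Tmem59l* and *Tmem100* were lost in 5, 8 and 7 of 10, and those of *Tmem125* and *Tmem30b* in 0. The call of *Tmem125* was lost without both wild-type arches low in sensory neuron markers (limma-voom FDR 0.0141).

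The genes with profiles nearest to each of the 4 across the 10 arches were found by the root mean square difference of centred log2 CPM, over 12455 genes with enough reads. *Prom2* and *Tmem54* were each other's nearest gene, at a distance of 0.80 log2 units. *Tmprss13*, a membrane serine protease gene, and *Macc1* were among the 4 nearest of both, and *Rbbp8nl* and *Upk3bl* completed the lists of *Prom2* and *Tmem54*. The difference between the genotypes dominates these distances, and *Prom2* and *Tmem54* were selected for that difference, so their closeness follows from the selection. The genes near them share a wild-type level of a few CPM and almost no reads in KO arches, where single reads move log2 values. How far that widens their distances was not tested. *Epcam* was nearest to *Cdh1*, at 0.17 log2 units, followed by *AI661453*, *Prss8* and *Kdf1*, at up to 0.29. *Prom1* was nearest to *Txndc11*, at 0.034 log2 units, followed by *Tra2a*, *Bmi1* and *Abr*, and all 4 of these overlapped between the genotypes and were not called. The libraries, and so their depth and tissue content, are common to all these profiles.

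The 4 genes lie on 4 chromosomes, and no gene beside them was called lower with limma-voom. Among the 16 neighbours, the nearest 2 tested genes on each side, limma-voom and edgeR called 0 lower and 1 higher, where 1.96% of all genes were called by limma-voom in either direction. At an unadjusted p below 0.05, 4 were lower and 4 higher, beside 14.3% and 14.2% of all genes, and DESeq2 called 2 lower, beside 3.81% of all genes. The 2 genes include the mismatch repair gene *Msh6* beside *Epcam*, whose limma-voom log2 fold change was -0.13. *Kcnip3* lies 4379 bp from *Prom2* and had a log2 fold change of 0.03 (SE 0.134). *Hpca*, which overlaps the end of *Tmem54*, had 0.81 (SE 0.366) and was not called (limma-voom FDR 0.173). *Fgfbp1*, 11841 bp from *Prom1*, had the most negative value of the 16, -0.60 (SE 0.386), and was not called (limma-voom FDR 0.327). The 1 gene called was *Ldb2*, which encodes a LIM-domain binding cofactor and lies 370100 bp from *Prom1*, at 0.43 (SE 0.0711, limma-voom FDR 0.00526). Its call was lost in 8 of 10 fits that left out an arch. Overlaps in exons were limited to *Hpca* with *Tmem54* and, for *Prom1*, to 424 bp (5.91% of its exonic bases) shared with the antisense gene *Gm16401*, while *Prom2* and *Epcam* shared none.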

How the data were processed

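Total RNA of 10 PA1s was sequenced as stranded, ribosome-depleted libraries. Alignment by the authors used STAR and GRCm38, and raw featureCounts counts of 22114 protein-coding genes were deposited (versions of both tools are not given in the sources used here; edgeR 3.18.1 and limma 3.32.7 are named in the submitters' processing notes). A deposited table of the authors' own fold changes and adjusted p-values was not used. The 14561 genes that reached 10 counts in any arch were TMM-normalized and fitted with limma-voom (limma 3.58.1, edgeR 4.0.16, R 4.3.3), genotype being the only term, with FDR below 0.01 as the call. The script was tested on simulated data. As alternatives, DESeq2 1.42.0, the quasi-likelihood test of edgeR, other normalizations, filters and thresholds, quality weights, a replicate block and leaving out each arch were run. CPM is the TMM-scaled count, log2 CPM used a prior count of 0.5, and exon lengths and coordinates came from GENCODE release 21 (GRCm38).

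The 4 genes and the gene lists were chosen with earlier results of these data known. Genes named were the 4, *Grhl2*, called genes of the EPCAM, apical protrusion and Tmem lists with the 3 most abundant uncalled genes of the first 2 lists, and the 4 nearest profiles per gene, among genes with a mean of at least 30 reads in wild-type arches. The neighbours, the promoter strings, the epithelial and other markers named singly, and the fit without 2 wild-type arches were chosen after the data were seen. The values of some genes under this rule are not reported here.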

Additional observations from a re-analysis of the deposited data

Results flagged for a closer look

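In 120 groups of 5 arches, 6 had 1 arch far from the other 4 by Dixon's test at its 95% critical value (0.71), and 6 are what chance gives, about 1 in 20. None was *Prom1*, *Prom2*, *Epcam* or *Tmem54*. *Adam10* was lowest in KO1-588 at 96.6 CPM. *Bace1*, another protease of EPCAM, was highest in WT5-566 at 49.98 CPM. The microvillus gene *Vil1* was highest in WT3-588 at 0.871 CPM, and the actin bundler *Espn* lowest in KO2-566 at 0.865 CPM. The neuroepithelial marker sum was highest in WT3-588 at 8.47 CPM among wild-type and in KO1-588 at 41.5 CPM among KO arches.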

How the results depend on the processing

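The log2 fold changes of *Prom1*, *Prom2*, *Epcam* and *Tmem54* kept their direction and moved by less than the spread between arches under all 20 alternatives, between -0.21 and -0.11, -6.53 and -6.02, -2.65 and -2.35, and -6.66 and -5.60. Counts over all genes (158 lower, 128 higher) moved more. They were 555 and 520 with DESeq2 and 564 and 559 at FDR below 0.05, and 204 were higher with quality weights. Without both wild-type arches low in sensory neuron markers 90 were lower and 19 higher, a fit with fewer samples. Leaving out 1 arch gave 110 to 249 lower, the most without KO1-588, and 42 to 143 higher. Of the apical protrusion genes 2 were lower and 1 higher both with DESeq2 and at FDR below 0.05. Of the Tmem-named genes (4 lower, 1 higher) 5 were higher with DESeq2, 2 with library size alone, 2 with quality weights, 8 lower and 5 higher at FDR below 0.05, and 2 lower and 0 higher without the 2 wild-type arches; leaving out 1 arch gave 2 to 4 lower and 0 to 2 higher. The EPCAM list kept 4 or 5 and the epithelial list 7 to 10 lower calls throughout. Why these counts moved was not tested, beyond the smaller samples.

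Some arches of both genotypes share a number in their labels, whose meaning is not given. Deviations from the genotype means correlated at -0.237 to 0.420 over 5 same-numbered pairs (mean 0.105, against -0.0253 over the other pairs). Several of these pairs share KO2-566 or KO2-568, so they cannot decide whether same-numbered arches belong together. The numbers were left out of the main fit. KO1-628 and KO3-604 share their number with no wild-type arch. With the number as a replicate block 69 genes were lower and 60 higher, 1 and 0 of the Tmem-named genes (*Tmem125* was lost, at FDR 0.0303 with limma-voom), 4 of the EPCAM list and 7 of the epithelial list, and the log2 fold changes of the 4 genes in the same order were -0.16, -6.02, -2.35 and -5.60.

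Depth limits *Prom2* and *Tmem54* in KO arches, where 10 and 5 reads in all cannot show differences between arches.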
